A study of Caenorhabditis elegans with 2 samples.

Results

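Splicing factor genes were examined in Caenorhabditis elegans with chromatin immunoprecipitation and sequencing (ChIP-seq), which maps where a protein sits on the genome. The protein was NHR-11, one of the worm's many nuclear hormone receptors. The members were the protein-coding genes whose symbol begins with snr-, rsp-, prp-, uaf-, sfa-, rnp-, sftb- or lsm- in the WBcel235 annotation. The rule found 50 genes among 19973 protein-coding genes of the nuclear genome. The rule was chosen with earlier results of these data known, but it used names and no measured value. It therefore also took in a few relatives with other duties, such as lsm-1 of cytoplasmic mRNA decay and rnp-8, a partner of a germline poly(A) polymerase.

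The libraries came from whole L1 larvae, the first larval stage, with males and hermaphrodites pooled. There was 1 group of 2 biological replicates. Every animal was of strain OP305, which carries the mutation unc-119(ed3) on chromosome III and the integrated transgene wgIs305 with eGFP-tagged NHR-11, and no age was given. There was no second genotype, stage or untagged strain among the samples, and in whole animals neither the cell type nor the number of cells behind a peak is known. Strength is given below as the peak signal that the authors' peak caller assigned, which has no stated scale and is not a level of bound protein. The files hold no read counts, so depth is unknown.

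Introns are removed by the spliceosome, which is assembled anew on each intron from small nuclear RNAs and their proteins. Rings of Sm proteins (the snr- genes) carry most of these RNAs, and a related LSM ring carries the U6 RNA. SR proteins bind exons and help to choose splice sites, U2AF and SF1 mark the end of the intron and the branch point, and SF3 proteins lock the U2 particle there. The PRP proteins, named after yeast mutants, belong to several different particles and steps. In worms many genes lie in operons, where 1 promoter serves several genes in a row and a separate reaction, trans-splicing, caps each message.

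A member was scored by the strongest candidate peak whose summit lay between 1000 bp upstream and 200 bp downstream of the 5' end of one of its protein-coding transcripts, called its promoter window below. It was called if a summit of the authors' reproducible list, thresholded by IDR (irreproducible discovery rate), lay in that window. A pooled candidate was present for 36 of the 50 members (72.0%), against 41.1% of all protein-coding genes. A called summit was present for 8 members (16.0%), against 4.79% of all protein-coding genes. Among genes with any pooled candidate the shares were 8 of 36 members (22.2%) and 11.6% of all such genes. These counts describe the members and carry no test, since they come from 1 group and several members share a peak. The members were also chosen with earlier results of these data known.

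The called members were snr-4, prp-19, rsp-1, rsp-2, prp-40, rsp-6, sftb-1 and rsp-7. Their summits were 8 in number, because rsp-1 and rsp-2 share 1 and snr-4 has 2. The genomic sequence beside these summits is given here since they are the called summits in the promoter windows of members. Each stretch is taken from RefSeq's WBcel235 sequence (ce11), plus strand, up to 50 bp to either side of the summit, and was shortened to leave out exons of protein-coding and snRNA genes. The sftb-1 stretch therefore ends before its summit at chrIII:4269752, which lies 9 bp inside the 5' end of R10E4.1. Capitals mark GACGCA or its reverse complement TGCGTC, a word that earlier work on these peaks had found to be frequent in called windows. The regions are, in the order printed, chrV:11980015-11980115 and chrV:11980262-11980336 for snr-4, chrIII:5172662-5172719 for prp-19, chrII:11453121-11453221 for rsp-1 and rsp-2, chrIII:9521874-9521974 for prp-40, chrIV:7791352-7791452 for rsp-6, chrIII:4269702-4269742 for sftb-1 and chrII:10658875-10658975 for rsp-7.
snr-4, stronger summit: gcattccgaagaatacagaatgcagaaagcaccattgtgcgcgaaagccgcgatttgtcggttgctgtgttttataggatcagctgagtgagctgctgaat
snr-4, weaker summit: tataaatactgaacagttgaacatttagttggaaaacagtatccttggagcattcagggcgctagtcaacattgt
prp-19: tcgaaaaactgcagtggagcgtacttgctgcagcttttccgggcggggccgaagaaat
rsp-1 and rsp-2: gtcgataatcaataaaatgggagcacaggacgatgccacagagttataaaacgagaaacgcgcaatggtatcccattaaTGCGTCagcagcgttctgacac
prp-40: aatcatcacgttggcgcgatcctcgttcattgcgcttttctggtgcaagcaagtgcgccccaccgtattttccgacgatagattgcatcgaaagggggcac
rsp-6: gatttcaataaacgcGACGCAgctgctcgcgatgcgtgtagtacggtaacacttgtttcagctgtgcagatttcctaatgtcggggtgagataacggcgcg
sftb-1: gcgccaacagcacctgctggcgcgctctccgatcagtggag
rsp-7: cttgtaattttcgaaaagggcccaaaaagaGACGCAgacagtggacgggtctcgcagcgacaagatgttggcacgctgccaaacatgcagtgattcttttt

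Windows reaching 50 bp from each of the 8 summits, exons included, were searched for 8 short words and their reverse complements. GACGCA occurred in 3 of the 8 windows, those of the rsp-1 and rsp-2 pair, rsp-6 and rsp-7. It occurred in 21.5% of the 708 called promoter summits and in 4.35% of the 8498 other pooled candidates in promoter windows. All 3 windows with the word belong to SR protein genes, and the windows of snr-4, prp-19, prp-40 and sftb-1 lack it.

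None of the other 7 words occurred in the 8 windows. The word GAGAGA is present in 26.3% of all called promoter summits and 9.53% of other promoter candidates. The word AGGTCA, a binding site of many nuclear receptors, is present in 2.68% of called promoter summits. The related word AAGTCA is present in 3.11% of them, AGTGCA in 6.07%, CACGTG in 4.24%, TTTTCAG in 2.54% and the longer word TTTGGCGC in 0.424%. Over other promoter candidates the shares were 2.20% for AGGTCA, 4.08% for AAGTCA, 3.52% for AGTGCA, 2.09% for CACGTG, 10.1% for TTTTCAG and 0.447% for TTTGGCGC. No word contains another. The top windows of scored members without a call, 27 in number, held the word GAGAGA in 4 cases (14.8%), and the same count held for GACGCA and, again, for the word TTTTCAG. The word CACGTG occurred in 1 of them, as did the word AGTGCA. The median GC content was 48.0% in the 8 called windows of members, 46.5% over all called promoter summits, 36.6% in the uncalled top windows of members and 34.7% over other promoter candidates.

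The Sm core gene snr-4, which encodes the SmD2 protein, had the strongest score of any member. Its pooled signal was 127.6, with 67.4 in replicate 1 and 58.2 in replicate 2. This ranked 208 of 28727 pooled candidates, and the replicates placed their summits 10 bp apart. The summit lies 342 bp upstream of the 5' end.

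A second called summit 563 bp upstream of snr-4 had a pooled signal of 71.3, with 47.7 in replicate 1 and 24.7 in replicate 2. Between the summits lies T11F9.15, a small nuclear RNA gene at chrV:11980118-11980261 on the plus strand. The stronger summit is 53 bp before its start and the weaker one 25 bp beyond its end. So the peaks stand beside a gene for a spliceosome protein and a gene for a spliceosome-type RNA at once, and the data do not assign them to either. Of the 7 distinct top summits of called members it was the 1 with a tRNA, snRNA, snoRNA or rRNA gene within 500 bp (14.3%), against 4.66% of called promoter summits. Over all scored members the count was 1 of 34 (2.94%), against 1.92% of all promoter candidates.

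No other Sm gene reached the called set, which begins at a signal of 49.9. snr-1 (SmD3) came closest, with 49.01 in the pool, 30.7 in replicate 1 and 19.5 in replicate 2. snr-6 (SmE) had 40.9 in the pool, 13.4 in replicate 1 and 27.5 in replicate 2. The replicates thus ordered these 2 genes differently.

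Of the remaining Sm genes, snr-3 (SmD1) had a pooled signal of 38.1 and snr-2 (SmB) 32.8. snr-7 (SmG) had 15.04 in the pool and no candidate in replicate 2, and snr-5 (SmF) had 9.30 in replicate 2 alone. In all, 6 of 7 Sm genes had a pooled candidate and 1 was called, and the median pooled signal of the 6 was 39.5, against 21.2 over all 8211 scored genes. None of the 7 lies close behind a same-strand neighbour.

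**Figure D1:**
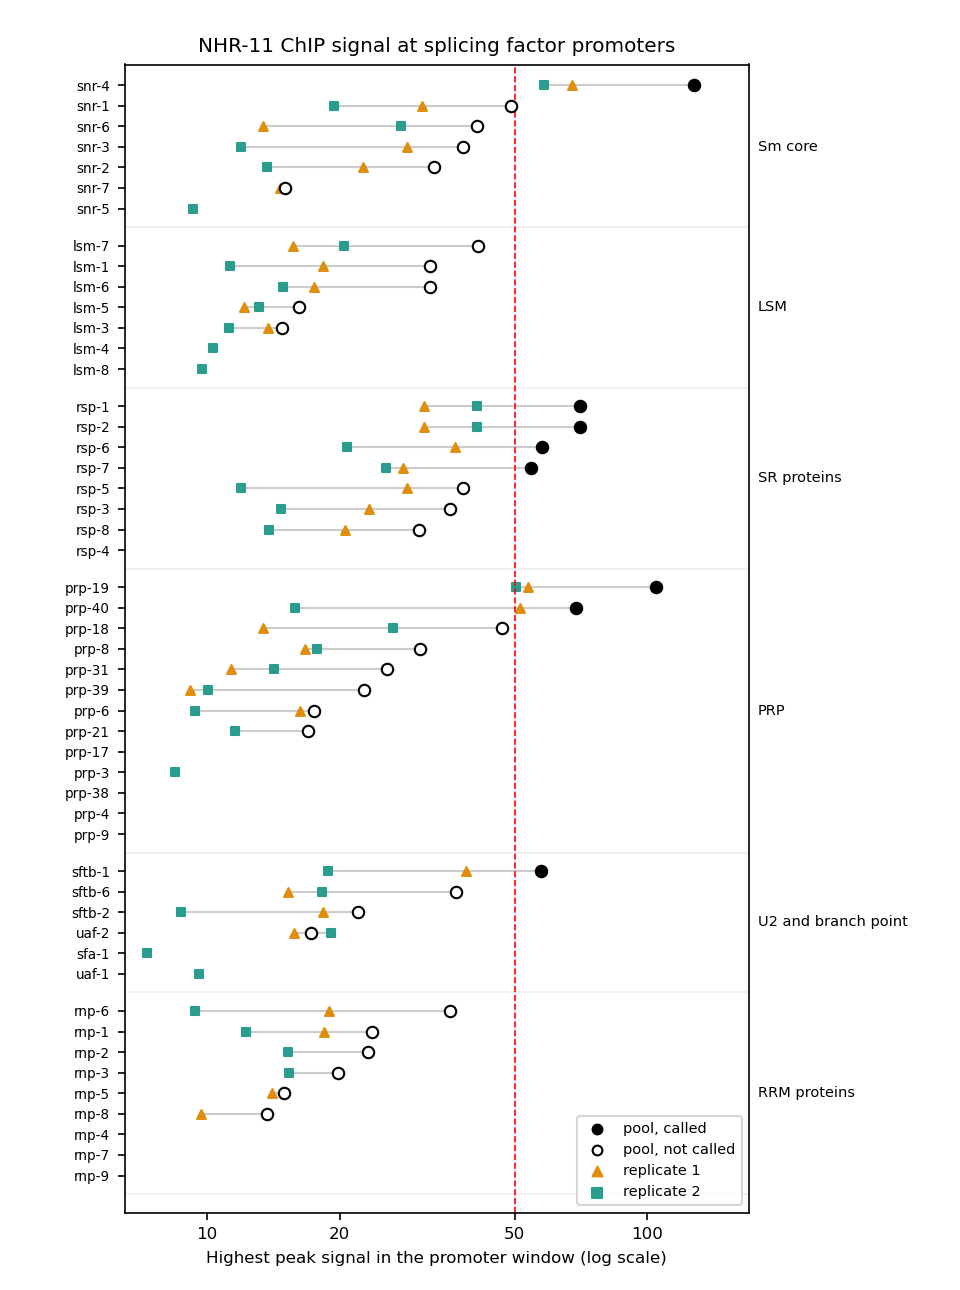
Highest peak signal in the promoter window of each of the 50 members (log scale), by family, for the pooled list (circles, filled where called), replicate 1 (triangles) and replicate 2 (squares). Grey lines join the values of 1 gene, a row without marks has no candidate in any list, and the dashed line is the lowest called signal, 49.9, and the 8 filled circles are the only pooled values above it.

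The SR protein genes were the family with the most called members, 4 of 8, with 3 distinct called summits. A further 3 were scored, so that 7 of 8 had a pooled signal of 30 or more, compared with 22 of all 50 members and 10.8% of all protein-coding genes. The median over the 7 scored SR genes was 54.4, with the peak shared by rsp-1 and rsp-2 counted for each of them.

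rsp-1 and rsp-2 stand head to head and share a single summit. There are 1018 bp between the outermost 5' ends of their protein-coding transcripts, and 406 bp between the annotated genes, because a noncoding transcript of rsp-1 begins farther out. The shared signal was 70.2 in the pool, 31.1 in replicate 1 and 41.1 in replicate 2. The summit lies 216 bp upstream of rsp-2. It lies 803 bp upstream of the first protein-coding transcript of rsp-1 but 191 bp from the start of its noncoding transcript, so the distances do not favour either gene. The replicate summits were 84 bp apart, the widest gap among the called regions of members.

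rsp-6 had its summit 173 bp upstream, with a signal of 57.6 in the pool, 36.6 in replicate 1 and 20.8 in replicate 2. rsp-7 had its summit 281 bp upstream, with 54.4 in the pool, 27.8 in replicate 1 and 25.5 in replicate 2. The rsp-7 summit also lies 299 bp upstream of snu-13, the divergent neighbour, which encodes a protein that binds the U4 RNA and box C/D snoRNAs. rsp-7 has the lowest called signal of the members, and it was just outside the strongest 1141 candidates in both replicates, at rank 1196 in each.

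rsp-5 and the Sm gene snr-3 form another head-to-head pair, with 403 bp between them and 1 summit 204 bp from rsp-5 and 200 bp from snr-3. Its signal was 38.1 in the pool and 28.5 in replicate 1. Replicate 2 had no overlapping candidate, and its strongest in either window was 11.9. This pair was among the strongest candidates of replicate 1 and was not called.

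rsp-3, the worm counterpart of human SRSF1, had 35.6 in the pool, 23.3 in replicate 1 and 14.7 in replicate 2. rsp-8, related to the Tra2 splicing activators, had 30.4. rsp-4 was the only SR gene with no candidate in its window in any list. A called summit with a signal of 88.5 lay 1294 bp upstream of it, in the promoter window of ndx-6, which precedes rsp-4 on the same strand.

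**Figure D2:**
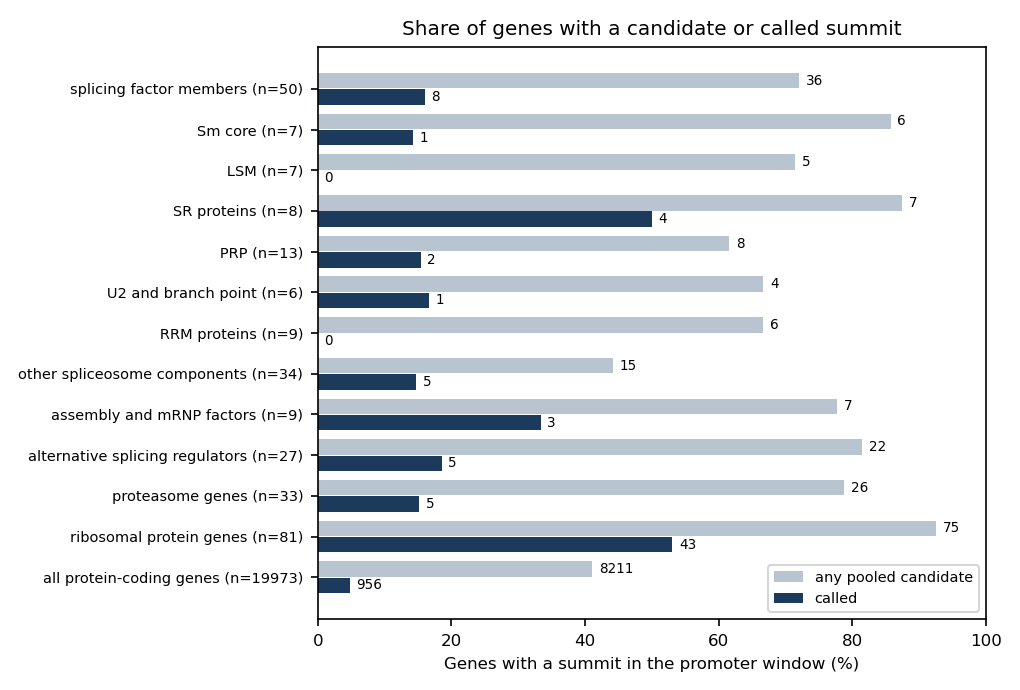
Percentage of genes with any pooled candidate (light bars) or a called summit (dark bars) in the promoter window, with the number of genes beside each bar, for the members, their 6 families, 3 lists of other splicing genes, 2 reference families and all protein-coding genes. SR protein genes have 4 of 8 called and LSM and RRM genes 0, while all protein-coding genes stand at 4.79%.

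Of the 13 PRP genes, 8 were scored and 2 were called. prp-19 encodes the ubiquitin ligase at the centre of the complex that activates the spliceosome. Its signal was 104.9 in the pool, 53.7 in replicate 1 and 50.3 in replicate 2, close values whose summits were 16 bp apart. The summit is 667 bp upstream of prp-19 but only 8 bp from the 5' end of K10D2.5 on the other strand, and it also falls in the window of emb-1, a subunit gene of the anaphase-promoting complex.

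prp-40, whose yeast counterpart belongs to the U1 particle, had its summit 151 bp upstream. Its signal was 68.8 in the pool, 51.5 in replicate 1 and 15.9 in replicate 2. The ratio of 3.24 between the replicates was the widest among members, and of 1137 called peaks with a candidate in both replicates 15 (1.32%) had a ratio above 3. It ranked 356 in replicate 1 and 4014 in replicate 2. The same summit is in the window of clu-1, a gene for mitochondrial distribution.

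prp-18, a factor of the second catalytic step, had 46.8 in the pool, 13.4 in replicate 1 and 26.4 in replicate 2. prp-8, the core protein of the U5 particle, had 30.4. prp-31 of the U4/U6 particle had 25.7, prp-39 had 22.7, prp-6, which bridges the U4/U6 and U5 particles, had 17.5, and prp-21, a subunit of SF3A, had 17.0. The other 5 had no pooled candidate. They were prp-3 and prp-4 of the U4/U6 particle, prp-9 of SF3A, prp-38 and prp-17, and of these prp-3 alone had a candidate in a replicate, at 8.45 in replicate 2.

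Among the 6 genes for recognition of the branch point and the 3' splice site, sftb-1 was called. It encodes the large SF3B subunit, with a signal of 57.3 in the pool, 38.7 in replicate 1 and 18.8 in replicate 2. The summit is 482 bp upstream of sftb-1 and 9 bp inside the 5' end of R10E4.1 on the other strand. sftb-6, for the small SF3B subunit that touches the branch point, had 36.8 in a window shared with the divergent gene luc-7L3, a relative of a yeast U1 protein gene.

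sftb-2 had a pooled signal of 21.97. uaf-2, for the small U2AF subunit, had 17.2. The genes for the large U2AF subunit, uaf-1, and for the branch point protein, sfa-1, had no pooled candidate. Their only candidates were weak ones of replicate 2, with signals of 9.57 and 7.29.

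No LSM gene was called, although 5 of 7 had a pooled candidate. lsm-7 had 41.2 in the pool, 15.7 in replicate 1 and 20.4 in replicate 2. lsm-1 had 32.2, lsm-6 had 32.1, lsm-5 had 16.1 and lsm-3 had 14.8. lsm-4 and lsm-8 had candidates in replicate 2 alone, at 10.3 and 9.75.

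The genes of the rnp- series, which share an RNA recognition motif, were the weakest family, with a median of 21.5 over the 6 scored ones and none of 9 called. rnp-6, related to the human splicing factor PUF60, had 35.6 in the pool, 18.9 in replicate 1 and 9.41 in replicate 2. rnp-2 and rnp-3, relatives of a protein of the U1 particle that lie in a row, had 23.1 and 19.9 and no candidate in replicate 1. rnp-1 had 23.7, rnp-5 14.96 and rnp-8 13.7. rnp-4, for the exon junction protein Y14, rnp-7, for the U1 70K protein, and rnp-9 had no candidate.

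In all, 8 members had no candidate in the pool or either replicate (16.0%, against 39.2% of all protein-coding genes). They were prp-17, prp-38, prp-4, prp-9, rnp-4, rnp-7, rnp-9 and rsp-4. Another 6 had one in replicate 2 alone, with signals from 7.29 to 10.3. The lowest listed signal was 8.49 in replicate 1, 7.14 in replicate 2 and 13.55 in the pool. A missing candidate can therefore be a weaker signal below the end of a list. The 14 members without a pooled candidate in the window had their nearest one 553 to 8440 bp from a 5' end, with a median of 1966 bp. No member had a called summit elsewhere in its gene body. That share was not computed over all genes, so it cannot be read as particular to the members.

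Taken one replicate at a time, 10 members had a summit among the 1141 strongest candidates of replicate 1 (20%, against 4.67% of all genes) and 6 among those of replicate 2 (12%, against 4.57%). Only snr-4, prp-19, rsp-1 and rsp-2 were among both (8%, against 3.26%). The strongest of replicate 1 further held prp-40, rsp-6, sftb-1, snr-1, rsp-5 and snr-3, and those of replicate 2 held prp-18 and snr-6. The 34 distinct top peaks of scored members included 24 with an overlapping candidate in each replicate. Across these 24 the signals had a Spearman's rho of 0.488 and a Pearson's r of 0.613 on log10 signal, given as a description because all peaks come from the same libraries. Replicate 1 was higher at 16 and replicate 2 at 8, with a median ratio of 1.17, and over all called peaks the median ratio was 1.09.

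**Figure D3:**
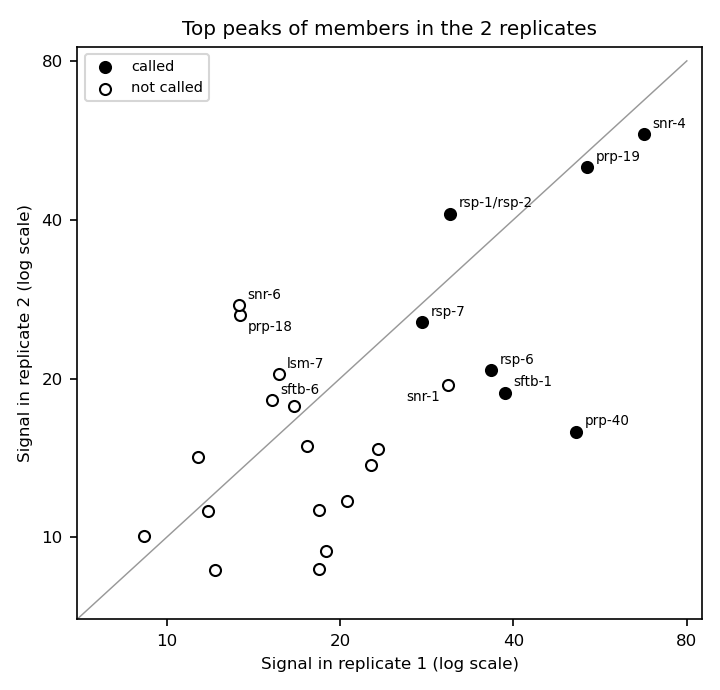
Signal in replicate 1 and replicate 2 (log scales) at the 24 distinct top peaks of members that overlap a candidate in each replicate, with called peaks filled and equal values on the grey line. snr-4, prp-19 and rsp-7 lie near the line, while prp-40 lies farthest below it at 51.5 and 15.9.

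The top summits of members lay mostly upstream of the nearest 5' end of the gene. Where a gene has several 5' ends, such a summit can lie inside the gene, as for rnp-3 and rnp-8. They did so in 32 of 36 scored members (88.9%), as in 88.4% of all scored genes, and all summits of called members were upstream. The median position was 248 bp upstream, and 302 bp upstream over all scored genes. The 4 summits downstream of the 5' end belonged to prp-31, prp-39, prp-6 and snr-7, with signals from 15.04 to 25.7. The 36 scored members had 34 distinct top summits. For 28 of the 36 the top summit was also in the window of another gene, 6 of the 8 called members among them. For most members the summit therefore cannot be given to the member alone. The same share was not computed over all scored genes, so it cannot be read as particular to the members.

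**Figure D4:**
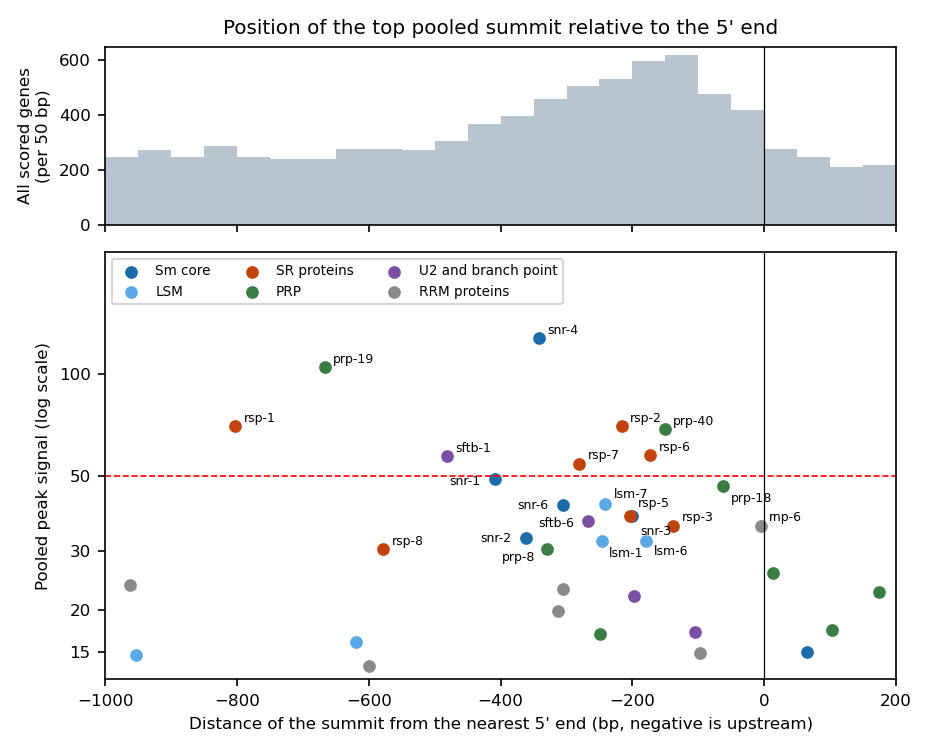
Position of the top pooled summit relative to the nearest 5' end of each gene, in bp, as a histogram of all 8211 scored genes (top) and with the pooled signal on a log scale for the 36 scored members (bottom, coloured by family). Members with a signal of 30 or more are named, and all points above the dashed line at 49.9 lie upstream.

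Many members lie behind another gene, and there the signal was often found at the gene in front. A same-strand protein-coding neighbour ended within 500 bp upstream of 14 members, or overlapped them, against 20.5% of all genes. This spacing is a stand-in for operons, which were not annotated in the files used here, and it was chosen after the values were seen. In its own window 1 of the 14, rsp-6, had a called summit (7.14%), against 3.67% of the 4091 genes so placed. At the first gene of the row, 6 of the 14 had a called summit (42.9%), against 10.1% of those genes, and at any gene of the row up to the member itself 8 of 14 had one (57.1%, against 14.1%).

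In front of prp-39 stands hmgs-1, for the HMG-CoA synthase of the mevalonate pathway, with a signal of 135.9 in the pool, 63.1 in replicate 1 and 73.0 in replicate 2. plrg-1, 106 bp in front of prp-38, encodes another member of the prp-19 complex and had 106.4 in the pool, 50.3 in replicate 1 and 51.5 in replicate 2. syf-2, 4 bp in front of rnp-7, encodes a spliceosome protein and had 99.6 in the pool, 46.9 in replicate 1 and 52.6 in replicate 2. In both rows the member and its neighbour are spliceosome genes, and the summit at the first gene was called.

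sqd-1, in front of lsm-8, had 105.4 in the pool, 44.3 in replicate 1 and 60.9 in replicate 2. acs-2, in front of lsm-5, had 92.2, and ubc-3, in front of lsm-6, had 68.7. By contrast rnp-1, rnp-3, sfa-1 and lsm-3 stand behind first genes with pooled signals of 14.8 to 23.7. For rnp-1 and lsm-3 this is the same peak as the member's own score. Its summit lies 962 and 954 bp upstream of these members, but 208 and 75 bp upstream of their first genes. rnp-4, rsp-4, rsp-6 and prp-3 stand behind first genes with no pooled candidate. In the sfa-1 row the first gene is the other splice site gene uaf-2.

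**Figure D5:**
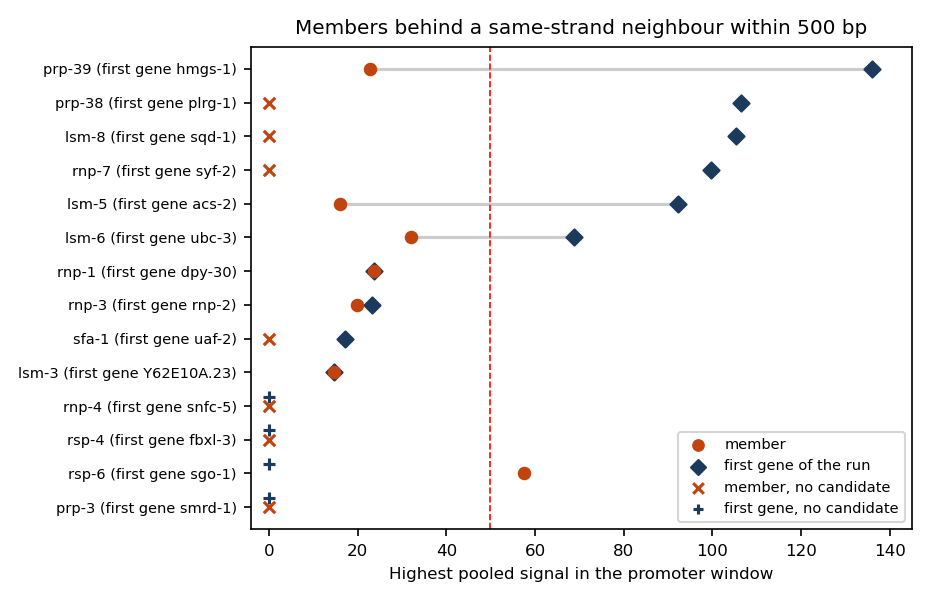
Highest pooled signal in the promoter window of the 14 members with a same-strand neighbour within 500 bp upstream (circles) and of the first gene of that row (diamonds), with a cross (member) or plus sign (first gene) at 0 where there is no pooled candidate. For 6 members the first gene lies above the dashed line at 49.9, where the member itself has no candidate or a signal of at most 32.1. For rnp-1 and lsm-3 both marks show the same peak.

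The 31 members with a divergent upstream neighbour included 6 of the 8 called ones (19.4% called, against 6.802% of all genes so placed). A pooled candidate was present for 26 of the 31 (83.9%, against 43.8% of all genes so placed). Of the 5 members with a same-strand neighbour more than 500 bp away, 1 was called (20%), namely snr-4. That share rests on 1 gene and was not computed over all genes so placed. Of the 14 with a same-strand neighbour within 500 bp, 1 was called (7.14%, against 3.67% of all genes so placed). Splicing genes faced each other in 4 of the divergent arrangements, rsp-1 with rsp-2, rsp-5 with snr-3, rsp-7 with snu-13 and sftb-6 with luc-7L3. The summit between them was called for rsp-1 with rsp-2 and for rsp-7 with snu-13, and not for the other two.

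Splicing genes with other names differed by list in how many had a pooled candidate. Of 74 symbols on 3 lists, 70 matched. Of these, 44 (62.9%) had one and 13 (18.6%) were called, against 41.1% and 4.79% of all protein-coding genes. A pooled candidate was present for 15 of 34 other spliceosome components (44.1%), near the 41.1% of all genes and below the 72.0% of the members. It was present for 7 of 9 assembly and mRNA factors (77.8%) and for 22 of 27 regulators of alternative splicing (81.5%). Among the 34 other spliceosome components 5 were called (14.7%). The strongest was smu-1, a regulator of splice site choice, with 125.4 in the pool, 63.4 in replicate 1 and 62.0 in replicate 2. It was followed by plrg-1, usp-39, snu-13 and cyn-10.

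Of 9 factors of particle assembly and of the exported mRNA 3 were called (33.3%, against 4.79% of all protein-coding genes). rsr-1, related to the SRm160 coactivator, had 101.7 in the pool, but 30.2 in replicate 1 and 71.1 in replicate 2. The SR protein kinase gene spk-1 had 81.1, and hel-1, for a helicase of splicing and mRNA export, had 80.2. Of 27 regulators of alternative splicing 5 were called (18.5%), namely swp-1, hrpu-1, rbm-25, hrpk-1 and hrpa-1. Their pooled signals were 58.2 to 123.2, and swp-1 shares its summit with the ribosomal protein gene rpl-23. The smn-1 gene, for the protein that loads Sm rings onto RNA, had 13.6. For scale, 5 of 33 proteasome genes (15.2%) and 43 of 81 ribosomal protein genes (53.1%) were called, against the same 4.79% of all genes. A share like that of the members was thus also seen in another housekeeping family.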

How the data were processed

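Per the labels, both samples are ChIP-seq libraries of DNA fragments of 150 to 350 bp. The deposited files are peak lists on ce10 and ce11, and the 4 ce11 lists were used, with 30000 candidates in each replicate, 28727 in the pool and 1141 in the IDR-thresholded list. The signal of each peak is the authors' deposited value, and every pooled candidate at or above 49.9, and none below it, is in the called list. The deposited notes name a control behind the lists. Neither labels nor files name the peak caller or the IDR cutoff. Without read counts, depth and precision per peak are unknown.

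Gene models were those of Ensembl 115 for WBcel235 (ce11), without mitochondrial genes, and the sequence from RefSeq. Shares carry no test. The summit search was tested on simulated data. The members and lists were chosen with earlier results of these data known. Named were all called members, the 12 strongest uncalled ones and those without a candidate; the other members, called genes of the lists and facing neighbours were added so that each member is accounted for. Alternatives changed the window, the overlap rule, the 5' ends, the assignment and the called set. Python 3.11.15, numpy 2.4.6, pandas 2.3.3 and matplotlib 3.10.9 were used.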

Additional observations from a re-analysis of the deposited data

How the results depend on the processing

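The count of 8 called members changed with the window, the assignment and the called set. It was 6 with a window of 500 bp upstream and 0 bp downstream (3.78% of all genes called) and 11 with 2000 bp and 500 bp (6.25%). It was 8 with overlap in place of the summit (5.07%) and 8 with the outermost 5' ends (4.48%). Without replicate 2, with the 1141 strongest candidates of replicate 1 as the called set, it was 10 (4.67%). Without replicate 1, with the 1141 strongest of replicate 2, it was 6 (4.57%). Both repeat the counts given above for single replicates. Of the 8 called members 7 remained without replicate 2. Only 4 remained without replicate 1, where prp-40, rsp-6, rsp-7 and sftb-1 were lost. With each summit given only to the nearest 5' end the count fell to 5, without prp-19, rsp-1 and sftb-1 (3.49% of all genes), where the noncoding start of rsp-1 was not counted. Among the 570 strongest called peaks it was 2, snr-4 and prp-19 (2.50% of all genes, against 4.79% with the full list). The members lost there were prp-40, rsp-1, rsp-2, rsp-6, rsp-7 and sftb-1. Their pooled signals of 54.4 to 70.2 lay below the median of 74.1 over all called peaks. Read at the first gene of a closely spaced row, a setting added after the data were seen, it was 13 (6.10%). The 36 scored members (41.1% of all genes scored) were 25 in the narrower window (26.1%), 39 in the wider one (56.3%), 37 with overlap (46.4%), 34 with outermost 5' ends (37.6%), 25 by the nearest 5' end (36.2%) and 39 at the first gene (43.7%). The background share of 4.79% was 11.6% over genes with a pooled candidate. The median score of 32.5 was 36.8 in the narrower window with 25 members scored and 35.6 in the wider one with 39, where sftb-2 reached 57.2. No paired analysis was possible because there is 1 group and no comparison between groups. The unknown depth and scale of the signal limit all values.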
